A study of Mus musculus with 7 samples.

Results

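A long stitched H3K27ac cluster is a stretch of chromosome in which peaks of the active histone mark H3K27ac recur at short distances over at least 40 kb. The clusters were found on chromosomes 1 to 19 from the bases that lay in a peak of both H3K27ac libraries. Neighbouring shared stretches were joined wherever the gap between them was 12 kb or less, and joined regions spanning 40 kb or more were kept. Of 20085 joined regions, 1056 (5.26%) reached that span and 19029 were shorter. The H3K27ac peaks chose the clusters, so their span, their H3K27ac coverage and peak heights, and the genes inside them are given as a description. H3K27me3 played no part in the choice.

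The libraries came from a ChIP-seq study of globose basal cells, the progenitors that renew the neurons of the olfactory epithelium. Adult wild-type mice had been given methimazole, a toxin that strips this epithelium, and were killed between 7 and 10 days later. Each replicate pooled the cells of 3 mice, taken with an antibody to c-Kit and magnetic selection, so other c-Kit-positive or carried-over cells of the mucosa may be present. Antibodies to H3K27ac and to H3K27me3 gave 2 libraries each, and 3 input libraries are not analysed here. All groups were lesioned and wild-type, and an unlesioned group is not analysed here. Peaks of 1 pool of cells cannot show whether a mark sits in few cells or sits weakly in many, nor whether 2 marks on the same bases sit in the same cells.

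H3K27ac is the acetyl mark that the enzymes p300 and CBP place on nucleosomes of active promoters and enhancers. Genes that define a cell's identity, and genes transcribed at high level, often lie in long runs of closely spaced acetylated elements, and the most heavily marked of these runs are called super-enhancers. H3K27me3 is the opposing mark on the same lysine, written by Polycomb Repressive Complex 2 (PRC2) over genes held silent, and a lysine can carry only 1 of the 2 marks at a time. The clusters described here were chosen by span alone and were not ranked by signal.

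Some clusters held microRNA genes, short regulatory RNAs that recognise their targets mainly through the seed, bases 2 to 8 of the mature strand. All 5 genes of the miR-200 family lay wholly inside clusters, and every base of each was covered in both H3K27ac libraries. This family is known for keeping cells epithelial and for its high level in the olfactory epithelium. Mir200a (chr4:156054896-156054985), Mir200b (chr4:156055681-156055750) and Mir429 (chr4:156053905-156053987) sat in an 84.7 kb cluster that also held Ttll10 and Tnfrsf18. Mir200c (chr6:124718322-124718390) and Mir141 (chr6:124717914-124717985) sat in a 128 kb cluster with Lpcat3 and Ptpn6. The mature strands, from the RefSeq annotation of GRCm38.p6, show the 2 seeds of the family in capitals, AACACUG in the 2 strands printed first and AAUACUG in the other 3:
miR-200a-3p: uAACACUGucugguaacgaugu
miR-141-3p: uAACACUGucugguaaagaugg
miR-200b-3p: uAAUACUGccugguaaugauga
miR-200c-3p: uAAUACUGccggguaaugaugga
miR-429-3p: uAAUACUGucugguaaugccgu

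Further microRNA genes, also picked after their values were seen, are shown for their place: in clusters without a protein-coding gene, beside H3K27me3, or in the cluster of a host gene. Mirlet7b (chr15:85707319-85707403) and Mirlet7c-2 (chr15:85706603-85706697), members of the let-7 family that rises as cells differentiate, were fully covered in a 112 kb cluster that overlapped no protein-coding gene. Mir132 (chr11:75173682-75173747) and Mir212 (chr11:75173388-75173478), neighbours that share a seed, were fully covered by H3K27ac in a 64.0 kb cluster with Smg6 and Hic1. H3K27me3 of both libraries covered all of Mir212 and none of Mir132. Mir21a (chr11:86584067-86584158), a microRNA that is often raised in injury and growth, was fully covered in the 82.7 kb cluster of Vmp1. Mir29a (chr6:31062660-31062747) and Mir29b-1 (chr6:31063023-31063093) lay in a 163 kb cluster with no protein-coding gene, in a gap between its H3K27ac stretches. The seeds are again in capitals:
let-7b-5p: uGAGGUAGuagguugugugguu
let-7c-5p: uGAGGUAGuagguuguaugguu
miR-132-3p: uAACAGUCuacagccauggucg
miR-212-3p: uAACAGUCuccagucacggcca
miR-21a-5p: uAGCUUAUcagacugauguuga
miR-29a-3p: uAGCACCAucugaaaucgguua
miR-29b-3p: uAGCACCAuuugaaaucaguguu
In all, 146 of 1136 microRNA genes on these chromosomes lay wholly inside a cluster (12.9%). Of these 146, H3K27ac shared by both libraries covered 72 entirely and 69 not at all, and 12 touched H3K27me3 shared by both libraries.

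Promoter windows of 6 genes are printed because they differ in H3K27me3, from none shared by both libraries to full coverage in both. Each window runs from 250 bases before to 50 bases after an annotated start in RefSeq GRCm38.p6, reads 5′ to 3′ along the gene, and was wholly covered in both H3K27ac libraries. Capitals mark, on either strand, the TATA box letters TATAAA, the CCAAT box, the GC box core GGGCGG, the E-box form CAGCTG and the AP-1 site TGACTCA, whose matches may overlap. A match is a run of letters, not a bound site. The windows are Msi2 at chr11:88718180-88718479 (minus strand), Hes6 at chr1:91413173-91413472 (minus), Fos at chr12:85473640-85473939 (plus), Nhlh1 at chr1:172057547-172057846 (minus), Lhx2 at chr2:38351058-38351357 (plus) and Uncx at chr5:139543648-139543947 (plus):
Msi2: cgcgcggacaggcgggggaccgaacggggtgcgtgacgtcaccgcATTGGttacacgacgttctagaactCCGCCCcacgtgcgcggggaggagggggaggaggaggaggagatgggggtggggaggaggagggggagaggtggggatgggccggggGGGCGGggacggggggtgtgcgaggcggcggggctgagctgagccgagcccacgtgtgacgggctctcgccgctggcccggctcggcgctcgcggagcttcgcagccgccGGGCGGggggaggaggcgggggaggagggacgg
Hes6: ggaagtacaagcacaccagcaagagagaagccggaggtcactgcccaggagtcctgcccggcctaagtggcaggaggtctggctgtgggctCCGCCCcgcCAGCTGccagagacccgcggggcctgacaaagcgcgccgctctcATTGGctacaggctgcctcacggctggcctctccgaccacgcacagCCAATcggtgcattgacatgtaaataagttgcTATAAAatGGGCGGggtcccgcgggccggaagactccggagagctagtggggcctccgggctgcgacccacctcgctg
Fos: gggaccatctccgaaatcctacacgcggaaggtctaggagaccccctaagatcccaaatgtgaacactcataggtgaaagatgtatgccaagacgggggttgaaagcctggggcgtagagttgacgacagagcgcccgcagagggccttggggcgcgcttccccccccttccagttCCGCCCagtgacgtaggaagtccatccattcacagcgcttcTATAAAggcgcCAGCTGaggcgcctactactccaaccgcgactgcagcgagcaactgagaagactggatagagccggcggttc
Nhlh1: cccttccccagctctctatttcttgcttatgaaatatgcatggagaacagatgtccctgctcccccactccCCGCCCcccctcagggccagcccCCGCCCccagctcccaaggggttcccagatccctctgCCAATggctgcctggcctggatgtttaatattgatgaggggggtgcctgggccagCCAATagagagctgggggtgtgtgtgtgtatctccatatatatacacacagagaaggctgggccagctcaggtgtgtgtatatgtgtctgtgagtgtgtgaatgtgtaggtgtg
Lhx2: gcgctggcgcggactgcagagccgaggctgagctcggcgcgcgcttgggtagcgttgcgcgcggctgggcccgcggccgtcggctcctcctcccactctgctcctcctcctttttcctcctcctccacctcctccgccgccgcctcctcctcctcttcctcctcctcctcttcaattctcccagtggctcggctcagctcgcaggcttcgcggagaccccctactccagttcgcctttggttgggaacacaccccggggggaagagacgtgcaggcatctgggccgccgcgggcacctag
Uncx: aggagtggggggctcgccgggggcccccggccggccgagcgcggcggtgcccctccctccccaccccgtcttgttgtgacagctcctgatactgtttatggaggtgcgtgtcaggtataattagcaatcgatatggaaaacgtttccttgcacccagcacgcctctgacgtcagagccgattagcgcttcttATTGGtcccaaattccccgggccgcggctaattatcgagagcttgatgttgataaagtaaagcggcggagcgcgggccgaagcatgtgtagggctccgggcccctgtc
The window of Msi2 held 37 CpG pairs, that of Hes6 21, that of Fos 20 and that of Nhlh1 2. H3K27me3 replicate 1 covered all 300 bases of the Msi2, Fos and Nhlh1 windows and 114 bases of the Hes6 window, and replicate 2 covered none of these 4 windows. Those of Lhx2, with 29 CpG pairs and none of the letters searched, and of Uncx, with 26, were wholly covered by H3K27me3 of both libraries as well.

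Over all clusters, the promoter windows with H3K27ac in both libraries resembled acetylated windows elsewhere in these letters. GGGCGG was in 67.6% of 2114 such windows in clusters, in 66.8% of 9753 acetylated windows outside clusters and in 47.0% of all 20084 windows. TATAAA was in 5.82%, 6.03% and 12.7% of the same windows. CCAAT was in 36%, 37.3% and 38.1%, and CAGCTG, which basic helix-loop-helix factors can bind, in 15.9%, 14.7% and 15.6%. TGACTCA was in 3.97%, 3.33% and 4.70%. The median number of CpG pairs was 21 in acetylated windows of clusters, 22 in acetylated windows elsewhere and 4 in the 191 cluster windows without H3K27ac in both libraries. No test was run on these shares.

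The clusters together spanned 72.4 Mb, 2.96% of the 2442 Mb of chromosomes 1 to 19, and held 38.2% of all bases covered in both H3K27ac libraries (24.8 of 64.9 Mb). Their span ran from 40 kb to 374 kb with a median of 58.1 kb and quartiles of 46.8 and 78.9 kb. At least 60 kb was reached by 502 clusters, 100 kb by 133 and 200 kb by 11. A cluster consisted of 5 to 74 shared stretches, with a median of 11. The longest stretch of a cluster had a median of 5.09 kb, and its largest gap a median of 9.93 kb, close to the 12 kb limit of the rule. No cluster was a single unbroken peak.

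H3K27ac shared by both libraries covered a median of 31.3% of a cluster's span, with quartiles of 23.2% and 40.4% and extremes of 5.07% and 91.8%. Taken alone, replicate 1 covered a median of 47.6% and replicate 2 a median of 37.4%. Replicate 1 covered more than replicate 2 in 963 of the 1056 clusters (91.2%). In 112 clusters shared H3K27ac covered 50% or more of the span. The highest peak of a cluster had a median fold enrichment over background of 9.58 in replicate 1 and 7.42 in replicate 2, as the authors' peak caller gave it. The plot of covered share against span shows the 10 longest clusters at 30.1% to 57.0%, all but that of Nxn above the median. The most and least covered clusters lie among the shorter ones.

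**Figure D1:**
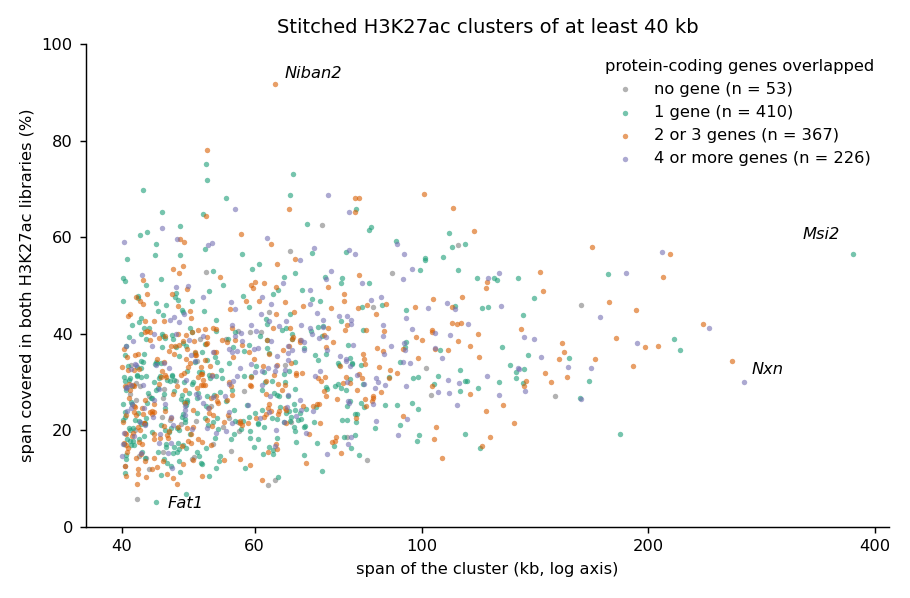
Share of each cluster's span covered in both H3K27ac libraries (y axis, percent) against its span (x axis, kb, log axis), 1 point per cluster, coloured by the number of protein-coding genes it overlaps. Most of the 1056 points lie between 40 and 100 kb and between 10 and 60% covered, with Msi2 far to the right (374 kb), Niban2 at the top (91.8%) and Fat1 at the bottom (5.07%).

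The longest cluster, 374 kb at chr11:88354679-88728303, lay almost wholly in Msi2, which encodes Musashi-2, an RNA-binding protein of stem and progenitor cells. Its 74 shared stretches covered 56.6% of the span (72.4% in replicate 1 and 62.2% in replicate 2). H3K27me3 covered 6.51 kb of it in replicate 1 and 0.586 kb in replicate 2, with no base in common. Nxn and Abr shared the next, of 268 kb, with 30.1% covered. Cmip and Plcg2, an adaptor and a phospholipase of immune and growth factor signalling, shared a cluster of 258 kb with 34.4% covered.

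A cluster of 241 kb on chromosome 8 overlapped 16 genes, among them Ell, an elongation factor of RNA polymerase II, and the AP-1 gene Jund. Zmynd8, a chromatin reader, and Eya2, a transcriptional cofactor and phosphatase, shared 237 kb with 42.0% covered. The cluster of Tns3, a focal adhesion protein, measured 220.5 kb, and that of Irf2bp2, a transcriptional corepressor, 216 kb. The Irf2bp2 gene filled 2.63% of its cluster, so nearly all of that acetylated run lay outside protein-coding genes. Likewise Tmem189 and Cebpb, the latter a transcription factor of stress and differentiation, filled 6.90% of a 213 kb cluster. Zmiz1, a transcriptional coactivator, lay in a cluster of 209 kb with 51.6% covered, and Sbno2 and Stk11, the latter the kinase LKB1, in a cluster of 209 kb with 57.0% covered. No H3K27me3 shared by both libraries lay in the clusters of Msi2, Nxn and Irf2bp2, and the other 7 of the 10 longest clusters held between 0.199 kb (Zmynd8) and 23.3 kb (Ell).

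The most solidly filled cluster was that of Niban2, where 91.8% of 63.9 kb was covered in both libraries. H3K27ac replicate 1 called it as 2 peaks and replicate 2 as 6, and its longest shared stretch was 42.1 kb. Sema3f, a secreted axon guidance protein, followed with 78.0% of 51.9 kb, and Btg2, an antiproliferative immediate early gene, with 75.2% of 51.7 kb. The fourth, with 73.0% of 67.5 kb, overlapped Frmd8 at its edge and held the abundant nuclear noncoding RNAs Neat1 and Malat1. Neither H3K27me3 library had a peak anywhere in it. Ccdc88c, a regulator of Wnt signalling, had 71.8% of 51.9 kb covered and differed from these in also holding 10.0 kb of H3K27me3 shared by both libraries.

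At the other end, the cluster in Fat1, a giant protocadherin, was 5.07% covered, with 8 shared stretches of at most 0.557 kb spread over 44.4 kb. Those at chr6:67128943-67170779 and chr3:121547669-121610118 overlapped no protein-coding gene and were 5.66% and 8.75% covered. Cldn10, a tight junction claudin, had 6.83% of 48.7 kb covered, and Fgd6 and Vezt together 8.78% of 47.4 kb. These sparse clusters were chains of small peaks held together by gaps of up to 11.9 kb.

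The 40 kb threshold cut through a continuous range. Just inside it lay the clusters of Rnf43 (40 kb, 33.2% covered), of Dgat1 and Scrt1 (40.016 kb, 14.6%) and of Mxi1 (40.063 kb, 46.7%). Just outside lay the regions of Zdhhc5 (39.992 kb, 18.6%), of Pkn3 and Set (39.982 kb, 22.5%) and of Mgll (39.948 kb, 29.4%).

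**Figure D2:**
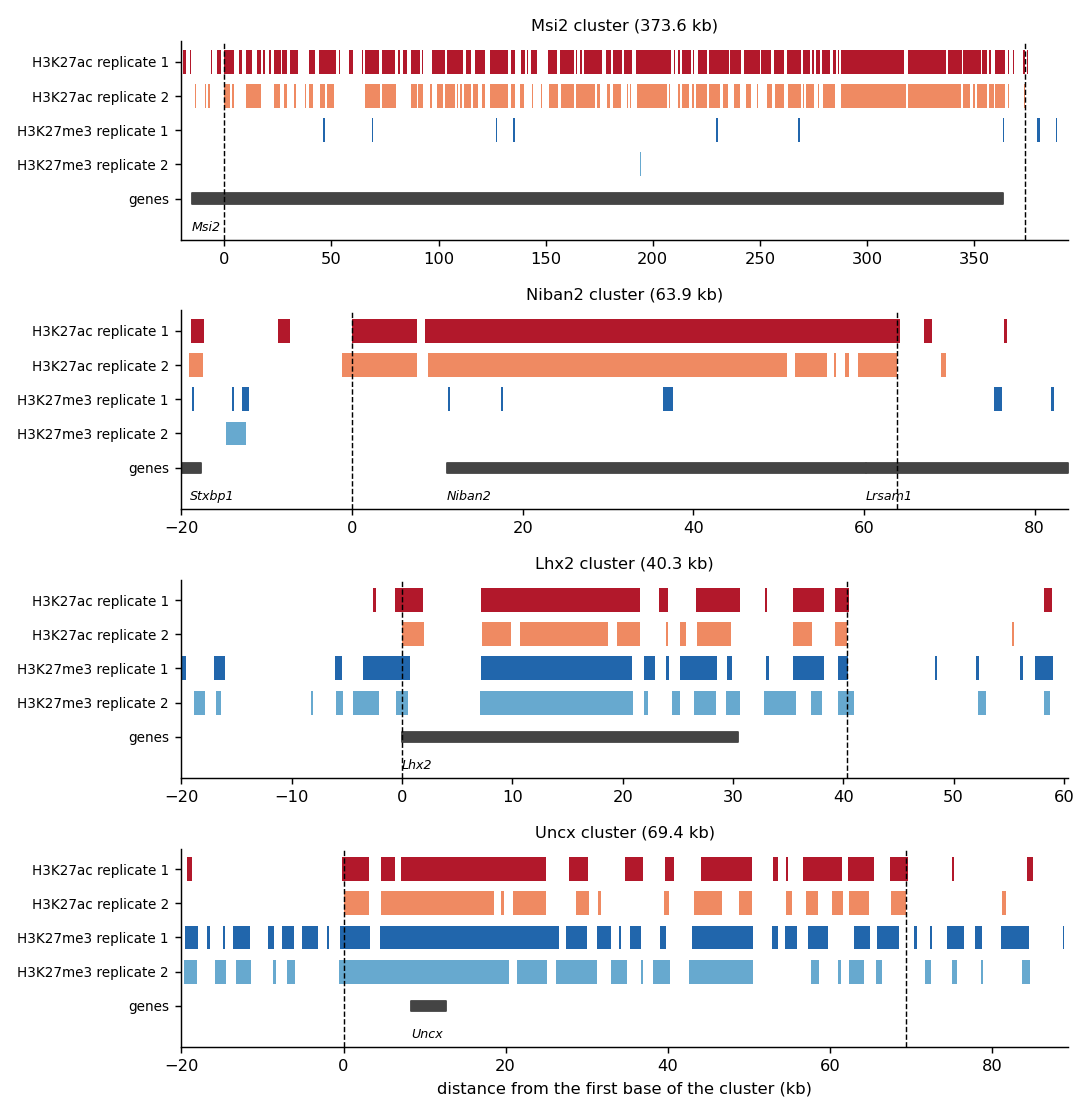
Peaks of the 4 libraries (coloured bars, 1 row per library) and protein-coding gene bodies (grey) across the clusters of Msi2, Niban2, Lhx2 and Uncx, against distance from the first base of the cluster in kb, with dashed lines at the cluster's ends. Msi2 and Niban2 show dense H3K27ac and scattered H3K27me3 peaks, while in Lhx2 and Uncx long peaks of both marks cover the same bases in all 4 libraries.

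Clusters differed in gene content. No protein-coding gene was overlapped by 53 clusters (5.02%), 1 gene by 410 (38.8%), 2 or 3 genes by 367 (34.8%) and 4 or more by 226 (21.4%). Gene bodies filled a median of 77.4% of a cluster. Of the 410 clusters with 1 gene, 125 lay wholly inside that gene's body and 164 held none of its annotated start windows, and 286 of all clusters held no start window of any protein-coding gene in the promoter table. That table gave windows for 16456 of 20661 genes and was not used for chromosome 18 with its 25 clusters, so both counts include clusters whose genes have no window in it. The cluster with the most genes, 25, was 55.9 kb of the clustered protocadherin array that includes Pcdhga11 and Pcdhga12, cell-surface proteins that give neurons their identity. Every gene whose annotated body overlapped a cluster was counted, also where gene bodies lie over one another or reach outside it. A cluster of 137 kb with Pitpnm1 overlapped 15 genes. Density per chromosome ran from 1.81 clusters per 10 Mb on chromosome 3 (29 clusters) and 2.22 on chromosome 13 (26) to 9.18 on chromosome 11 (112), where protein-coding genes were also dense (13.2 per Mb, against 6.15 on chromosome 3).

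Of 20661 protein-coding genes on these chromosomes, 2559 (12.4%) overlapped a cluster and 1490 lay wholly inside one. Overlapping genes had a median length of 15.9 kb, against 17.5 kb for all. Denn2b, Gse1 and Tcf4 each overlapped 3 clusters, and 60 genes overlapped 2 or more. Among gene families picked by symbol, the clusters overlapped 18 of 81 histone genes (22.2%), 20 of 91 genes with a ribosomal protein symbol (22.0%, a symbol match that also takes the kinases Rps6ka1 and Rps6kb2), 24 of 388 Zfp zinc finger genes (6.19%), 4 of 53 keratin genes (7.55%) and 986 of 12408 long noncoding RNA genes (7.95%). None of 1104 olfactory receptor genes, the receptors by which olfactory neurons sense odours, overlapped a cluster. The H3K27ac peaks set these counts, and they are read here against the 12.4% of all protein-coding genes as a description.

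**Figure D3:**
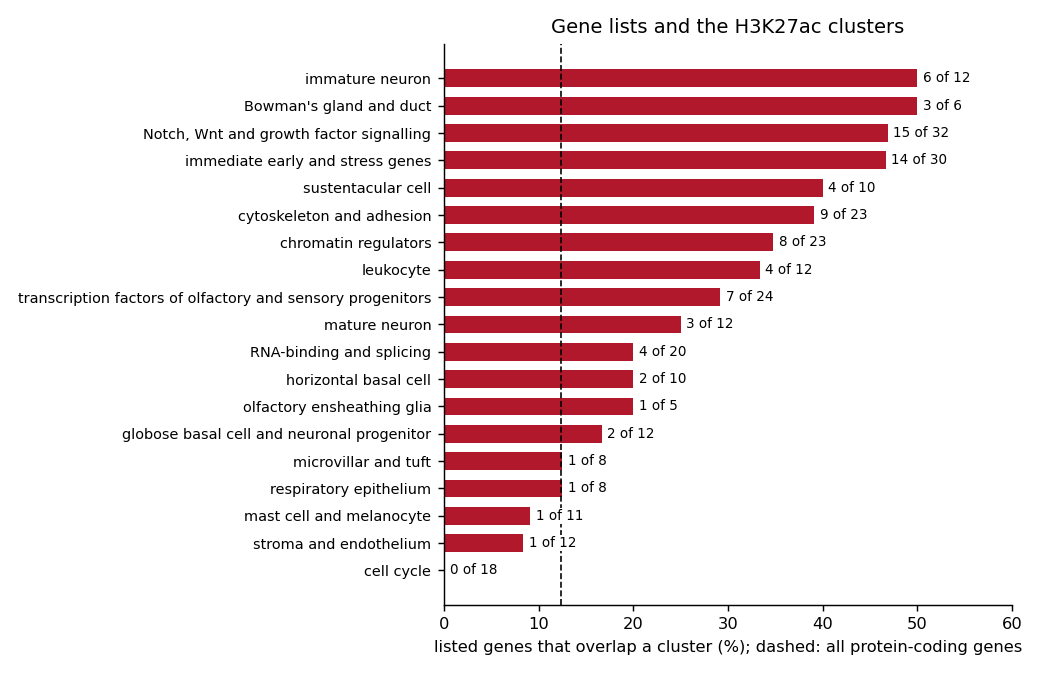
Share of the genes of each list that overlap a cluster (x axis, percent; bars from 0), with the number of genes beside each bar and a dashed line at the 12.4% of all protein-coding genes. Immature neuron markers (6 of 12) stand near the top and cell cycle genes (0 of 18) at the bottom.

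Among 12 markers of globose basal cells and neuronal progenitors, Hes6 and Lhx2 lay in clusters. Hes6, a helix-loop-helix factor that favours neuronal differentiation, shared 67.5 kb with Per2 and Ilkap. Of that cluster H3K27ac covered 55.3% in replicate 1 and 44.8% in replicate 2, and H3K27me3 2.28 kb in replicate 1 and 0 kb in replicate 2. Lhx2, a LIM homeodomain factor that olfactory neurons need to mature, lay in a cluster of 40.3 kb, just over the threshold. The other 10 markers lay in joined H3K27ac regions of at most 29.3 kb. Those of Pax6 (29.3 kb), Kit (23.8 kb), Sox2 (23.0 kb) and Neurog1 (21.4 kb) were the longest. The median of the 10 was 14.8 kb and the shortest measured 2.72 kb. All 12 markers thus had H3K27ac of both libraries at the gene, most of them in regions too short for a cluster. No member on chromosomes 1 to 19 lacked such a region in the immature neuron, sustentacular, immediate early, cell cycle, chromatin, RNA-binding or cytoskeleton list either. At the promoter window alone, a narrower place than the gene, 59.9% of all genes with a window had shared H3K27ac. The share of all genes with such a region was not taken. The promoter windows of Kit, Neurog1, Sox2 and Pax6, picked after their values were seen, were wholly covered by both marks in both libraries of each. Of the markers in clusters, Lhx2 had shared H3K27me3 at its window and Hes6 had none. Windows of the other markers are not reported here, so these genes do not speak for the list. Of all 16456 genes with a window, 1653 had some of both marks there, a looser count than whole coverage.

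Markers of immature neurons lay in clusters for 6 of 12 genes. Stmn1, a microtubule destabiliser, lay in 93.1 kb, Gng8, a G protein subunit of immature olfactory neurons, in 62.5 kb, and Nhlh1, a helix-loop-helix factor of newborn neurons, in 47.4 kb. Clusters also took parts of the long genes Ncam1 (44.6 kb, or 15.0% of the gene) and Ebf1 (73.8 kb, 18.9%), and 9.62% of Stmn4. Gap43, Tubb3 and Stmn2, commonly used markers of the same stage, lay in regions of 4.00, 4.30 and 2.54 kb. The longest region among the 6 outside clusters measured 34.1 kb. Of 12 mature neuron markers, the adenylyl cyclase Adcy3 (44.1 kb), the G protein subunit Gng13 (94.7 kb) and Ebf2 (95.3 kb) lay in clusters, while Omp lay in a region of 36.9 kb and Stoml3 in none.

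Genes of other cell types of the mucosa lay in clusters too, so the lists were taken in full. Of 10 sustentacular cell markers 4 overlapped clusters, Krt8 and Krt18 in 109 kb, Notch2 in 95.3 kb and Cbr2 in 141 kb. The 6 outside clusters had regions of 0.837 to 14.5 kb, with a median of 3.56 kb. The detoxifying enzymes Cyp2g1 (0.901 kb) and Sult1c1 (0.837 kb) were among these. Of 10 horizontal basal cell markers, Icam1 (89.3 kb) and the integrin Itgb4 (43.1 kb) overlapped clusters. Trp63, the defining factor of these reserve stem cells, had a region of 0.398 kb, Krt14 one of 1.32 kb, and Krt5 and Krt15 none. The longest region among the 8 outside clusters measured 29.3 kb. Bowman's gland and duct gave 3 of 6 (Ascl3, Sox10 and Kcnn4), respiratory epithelium 1 of 8 (Foxj1), microvillar and tuft cells 1 of 8 (Ascl3) and ensheathing glia 1 of 5 (Sox10). Outside clusters, the longest regions of these lists measured, in that order, 24.7, 28.2, 38.3 and 29.2 kb. Stroma and endothelium gave 1 of 12 (Pecam1, in a cluster of 148 kb). No joined region lay at Col1a2, Col3a1, Dcn and Lum, and the longest outside clusters measured 24.3 kb.

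Leukocyte markers overlapped clusters for 4 of 12 genes. These were Cd68 in 63.0 kb, Runx1 in 101 kb, Spi1 in 48.3 kb and Laptm5 in 146 kb. Itgam, Cd3e and Adgre1 had no joined region, and those of Ptprc and Lyz2 measured 0.195 and 0.232 kb. The longest region among the 8 leukocyte markers outside clusters measured 31.8 kb. Of 11 mast cell and melanocyte markers, whose cells also carry c-Kit, Hdc lay in a cluster of 68.9 kb. No joined region was found at 7 of them, Cpa3, Fcer1a and Tyr among them, and the longest outside clusters measured 17.0 kb. How much of the H3K27ac in these clusters came from such cells was not tested.

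Transcription factors of olfactory and sensory progenitors overlapped clusters for 7 of 24 genes. Among them was the transcriptional cofactor Eya2, in the 237 kb cluster it shared with Zmynd8. Zmynd8 overlapped more of that cluster, and the start windows found in it were those of Zmynd8. Also among them were the Notch effector Hes1 (58.1 kb) and the helix-loop-helix inhibitors Id1 (75.8 kb) and Id3 (82.1 kb). The E-protein partners of the Id factors, Tcf3 (65.8 kb) and Tcf4, whose longest cluster measured 119 kb, overlapped clusters too. H3K27me3 lay in most of these, at unequal length. In the Hes1 cluster it covered 13.2 kb in replicate 1 and 14.3 kb in replicate 2, 9.76 kb of it shared. Tcf3 had 7.03 and 0.494 kb, and the Tcf4 cluster 0.201 and 0 kb.

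Notch, Wnt and growth factor signalling gave 15 of 32 genes. Among the Notch pathway, the receptors Notch1 (113 kb) and Notch2 (95.3 kb), the ligands Dll4 (84.1 kb) and Jag2 (58.4 kb) and the glycosyltransferases that tune the receptor, Mfng (193 kb) and Lfng (55.8 kb), lay in clusters. Dll1, the ligand often seen in neuronal progenitors, lay in a region of 6.93 kb, and Dll3 had none. Of Wnt genes the nuclear effector Tcf7l2 (66.7 kb) and the receptor-removing ligase Rnf43 (40 kb) lay in clusters. H3K27me3 shared by both libraries lay in the clusters of 12 of the 15 genes, where 58.8% of all clusters had it. That share counts clusters, not genes, and was 76.1% for clusters with 4 or more genes. Shared H3K27me3 lay at the promoter windows of 7 of the 11 genes with a window in the table, including Notch1, Dll4, Jag2 and Lfng, against 16.2% of all genes with a window in a cluster. Notch2, whose window had none shared, had 0.533 kb of shared H3K27me3 in its cluster. Smad3 and Smad7, signal carrier and inhibitor of the TGF-beta pathway, were singled out after their values were seen. The Smad3 cluster (72.2 kb) had 29.9 kb of H3K27me3 in replicate 1, 31.9 kb in replicate 2 and 22.5 kb shared, and the Smad7 cluster (47.8 kb) had 20.02, 20.6 and 12.7 kb.

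Immediate early and stress genes overlapped clusters for 14 of 30. Fos (47.1 kb), Fosb (109 kb), Fosl1 (65.6 kb), Fosl2 (53.9 kb) and Jund (241 kb), subunits of AP-1, were among them, as were Atf3 (112 kb), Ier3 (40.2 kb) and Ier5 (59.5 kb). Jun, Junb, Egr1 and Myc lay in shorter regions of 16.1, 33.4, 22.3 and 4.07 kb. H3K27me3 shared by both libraries lay in the clusters of 13 of the 14 genes, beside 58.8% of all clusters. The former counts genes and the latter clusters, so the 2 are not like for like. Of clusters with 4 or more genes 76.1% had it. Shared H3K27me3 lay at the promoter windows of 5 of the 12 genes with a window, Fosl2 and Atf3 among them, and not at those of Fos, Fosb and Jund. Of all genes with a window in a cluster 16.2% had it.

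None of 18 cell cycle genes overlapped a cluster. Their joined regions had a median of 10.7 kb, from 0.602 kb at Top2a to 32.2 kb at Cdkn1b, with 1.27 kb at Mki67 and 10.8 kb at Ccnd1. Chromatin regulators gave 8 of 23 genes, among them Kdm6b (122 kb), an H3K27 demethylase, Chd4 (108 kb), Dnmt1 (89.3 kb), Arid1a (64.5 kb), Dnmt3a (62.1 kb), Arid1b (56.4 kb) and Kmt2e (50.3 kb). The core subunits of PRC2 were outside them, in regions of 1.76 kb (Ezh2), 1.99 kb (Eed) and 3.68 kb (Suz12), and so were the acetyltransferases Ep300 (2.06 kb) and Crebbp (1.96 kb). The Kmt2e cluster had some of the highest H3K27ac peaks of any cluster, with a fold enrichment of 28.6 in replicate 1 and 26.2 in replicate 2, and no H3K27me3 peak in either library.

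Cytoskeleton and adhesion gave 9 of 23 genes, led by the myosin Myh9 (168 kb, 58.0% covered) and followed by Actn1 (94.96 kb), Actn4 (81.5 kb, 68.1% covered), Tpm1 (47.2 kb), the epithelial cadherin Cdh1 (44.4 kb), Rhoa (44.0 kb, which takes 2.83% of the gene), Rac1 (42.6 kb) and Actb (41.8 kb). RNA-binding and splicing genes gave 4 of 20, Srsf2 (79.9 kb), Srsf3 (52.8 kb) and the noncoding Neat1 and Malat1. Of the remaining 16 of that list, Rbm39 had the longest region (31.6 kb) and the median was 3.26 kb.

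H3K27me3, which the choice of clusters did not use, was found in most clusters as short stretches. Both libraries covered a shared base in 621 of 1056 clusters (58.8%), replicate 1 covered a base in 974 (92.2%) and replicate 2 in 778 (73.7%). The same count over 39898 windows of 58 kb that held no cluster base gave 28% for both libraries, 54.4% for replicate 1 and 43.3% for replicate 2. Over the 13806 of those windows that held H3K27ac of both libraries it gave 45.3%, 75.6% and 60.4%. Shorter joined regions of 10 to 40 kb, at a median span of 17.2 kb, had shared H3K27me3 in 36.2%. Clusters thus touched H3K27me3 more often than windows of about their median span in each library. With 2 libraries a mark no test over libraries could pass, since 2 values against 2 are too few, and regions are not replicates.

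Most of these contacts were small. Where shared H3K27me3 was present its median length was 2.22 kb, 453 clusters had at least 1 kb of it, 162 at least 5 kb and 59 at least 10 kb. These 59 held 38.5% of the 2.48 Mb of shared H3K27me3 inside clusters. In 67 clusters (6.34%) neither library had an H3K27me3 peak, and the clusters of Ncam1, Kmt2e, Rac1 and of Neat1 and Malat1 were among them. Broad H3K27me3 domains, shared stretches of at least 10 kb after joining gaps of up to 3 kb, numbered 1697. Of these domains 94 (5.54%) touched a cluster and 54 lay wholly inside one, and 86 clusters (8.14%) touched such a domain.

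By bases, H3K27me3 replicate 1 covered 10.1% of the clusters and replicate 2 covered 5.36%, against 4.06% and 3.66% of chromosomes 1 to 19. The clusters were thus 2.49 times as covered as the chromosomes in replicate 1 and 1.46 times in replicate 2. The 40 kb on each side of the clusters were covered to 10.3% and 7.33%, and shorter joined regions of 10 to 40 kb to 10.7% and 6.92%. In both libraries the clusters lay above the chromosomes and below their own flanks and the shorter regions. The distance from the flanks was small in replicate 1 and larger in replicate 2. With bases covered in both libraries the values were 3.43% for clusters, 4.62% for flanks, 4.73% for shorter regions and 2.05% for the chromosomes.

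**Figure D4:**
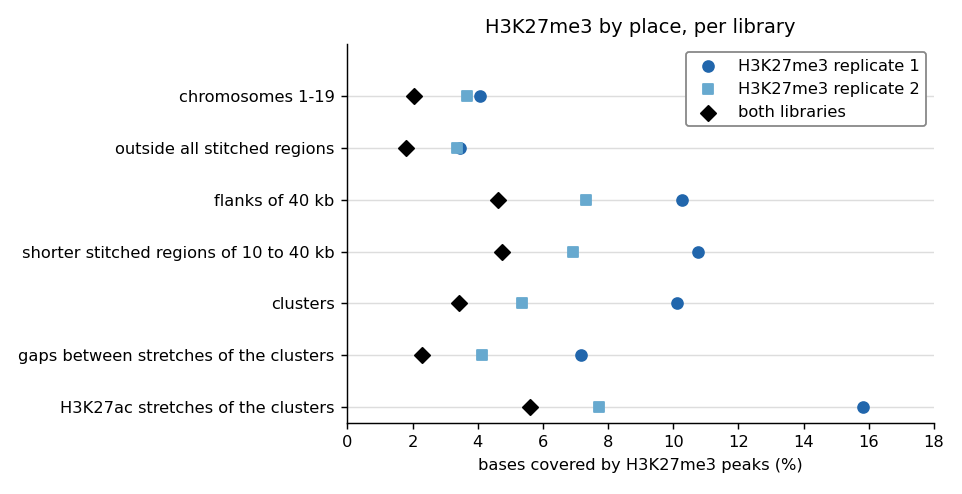
Bases covered by H3K27me3 peaks (x axis, percent) in replicate 1 (circles), replicate 2 (squares) and both (diamonds) for chromosomes 1 to 19, the clusters, their parts and comparison regions. H3K27ac stretches of the clusters had 15.8% covered in replicate 1 and 7.72% in replicate 2 (H3K27ac stretches outside clusters, not drawn, had 21.5% and 13.6%), and whole clusters lie below flanks and shorter regions in each library.

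The order against the chromosomes depended on the height of the H3K27me3 peaks. With peaks of a −log10 q of at least 2, clusters had 5.29% and 2.34% covered in replicates 1 and 2, against 2.75% and 1.74% of the chromosomes. At a −log10 q of at least 5 they had 1.22% and 0.267%, against 0.745% and 0.376%, so clusters then lay above the chromosomes in replicate 1 and below them in replicate 2. The flanks (6.44% and 3.48%, then 1.67% and 0.625%) and the shorter regions (6.87% and 3.49%, then 2.14% and 0.673%) stayed above the clusters in both libraries at both thresholds. Clusters with any shared H3K27me3 numbered 339 (32.1%) at the first threshold and 32 (3.03%) at the second.

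H3K27me3 peaks that touched clusters were lower than peaks elsewhere. In replicate 1 the 6648 peaks touching a cluster had a median fold enrichment of 3.18, against 3.48 for the other 86456, and 3.37% of them, against 6.16%, reached a −log10 q of 5. In replicate 2 the 2954 peaks touching a cluster had a median of 3.10, against 3.21 for 60872, and 1.39% against 2.40% reached that height.

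Inside clusters, H3K27me3 lay more on the H3K27ac stretches than in the gaps between them. Replicate 1 covered 15.8% of the stretches and 7.15% of the gaps, and replicate 2 covered 7.72% and 4.13%. Of the shared H3K27me3 bases in clusters 56.0% lay on shared H3K27ac, and 580 clusters had both marks on the same bases. H3K27me3 covered more of the H3K27ac stretches outside clusters than of those inside, at 21.5% in replicate 1 and 13.6% in replicate 2. For the joined regions of 10 to 40 kb alone the values were 19.6% and 11.8%. In these regions 21.1% of shared H3K27ac bases were within 1 kb of a promoter window, against 12.5% in clusters. The part of promoter distance in this difference was not tested.

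The labels give the same input library for replicate 1 of H3K27me3 as for replicate 2 of H3K27ac, so the overlap was taken for each pair of libraries. Of the H3K27ac bases of clusters, H3K27me3 replicate 1 covered 14.4% in H3K27ac replicate 1 and 14.7% in H3K27ac replicate 2, which has the same input. H3K27me3 replicate 2 covered 7.05% and 7.20%. Only the pair of H3K27me3 replicate 1 and H3K27ac replicate 2 shares an input, so a part of the input cannot be told apart from that of the libraries. It was not tested.

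Across the cluster edge, H3K27me3 dipped outside and peaked just inside. From 20 to 40 kb outside an edge, replicate 1 covered 11.4% of bases and replicate 2 covered 8.18%. In the last 5 kb before the edge they covered 8.34% and 5.64%. In the first 1 kb inside, where the rule places H3K27ac, they covered 17.9% and 10.9%, and from 20 to 40 kb inside 9.81% and 4.85%. The bins from 20 to 40 kb inside hold only clusters long enough to reach them, with 494 edges in the last bin against 2112 at the edge. From 5 to 20 kb inside, where every edge counts, the libraries covered 9.71% and 5.41%. The sequence of a dip, a peak and a lower interior was the same in both libraries. The rule also leaves no shared H3K27ac in the 12 kb outside an edge, and H3K27me3 lay more on H3K27ac stretches than in gaps. The dip and the peak may therefore follow in part from how the edge is set, and this part was not tested.

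**Figure D5:**
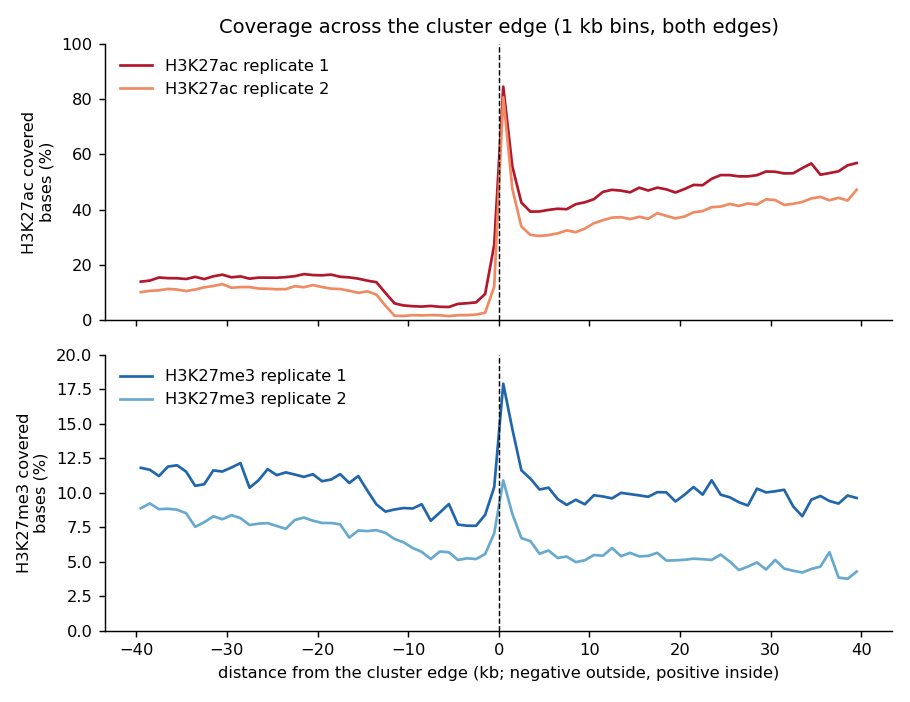
Bases covered by H3K27ac peaks (upper panel, percent) and by H3K27me3 peaks (lower panel, percent) in 1 kb bins from 40 kb outside (negative) to 40 kb inside (positive) the edges of the 1056 clusters, 1 line per library. All 2112 edges enter the bins from 12 kb outside to 20 kb inside. Fewer enter the bins farther out (1844 in the outermost) and farther in (494 in the innermost, from longer clusters only). H3K27ac steps up at 0 because the rule sets the edge there, and H3K27me3 reaches 17.9% (replicate 1) and 10.9% (replicate 2) in the bin just inside.

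At promoters the direction of the difference varied. Of 16456 protein-coding genes with a promoter window in the reference table, 59.9% had H3K27ac and 19.2% had H3K27me3 in both libraries. For the 1771 genes with a window in a cluster, 1659 (93.7%) had H3K27ac, as the rule favours, and 287 (16.2%) had H3K27me3 of both libraries, against 19.6% of genes with windows outside. Among acetylated promoters alone the shares were 15.9% in clusters and 17.0% outside. Replicate 1 gave 33.7% in clusters and 32.2% outside, and replicate 2 gave 17.8% and 18.7%, so the direction differed between the libraries. Both marks were present at the windows of 263 genes in clusters.

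Gene-rich clusters had more H3K27me3 than clusters with 1 gene. Shared H3K27me3 was found in 54.7% of clusters without a gene, 48.0% of those with 1 gene, 60.8% of those with 2 or 3 and 76.1% of those with 4 or more. In bases, replicate 1 covered 9.10%, 8.23%, 10.3% and 13.1% of these classes and replicate 2 covered 6.07%, 4.32%, 5.48% and 6.69%. The lowest value in both libraries was that of 1-gene clusters and the highest that of clusters with 4 or more genes. Median span rose from 52.8 kb without a gene to 65.7 kb with 4 or more, and its part in the counts of clusters was not tested. The median of the highest H3K27ac fold enrichment ran from 7.13 and 5.38 (replicates 1 and 2) without a gene to 12 and 9.45 with 4 or more.

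The clusters with the most H3K27me3 held developmental and tissue-restricted genes. The largest amount lay around Uncx, a homeodomain transcription factor, in a cluster of 69.4 kb at chr5:139535534-139604887. H3K27me3 covered 48.8 kb of it in replicate 1, 45.4 kb in replicate 2 and 37.2 kb (53.7%) in both, and 28.0 kb of the shared bases also carried shared H3K27ac. The highest H3K27me3 peak reached a fold enrichment of 9.90 in replicate 1 and 5.23 in replicate 2. The highest H3K27ac peak reached 12.3 and 9.56. Both marks were thus high and long in the same interval in all 4 libraries, as the maps show.

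Tmem211 followed with 34.8 kb of shared H3K27me3 in 145 kb (71.2 kb in replicate 1 and 41.6 kb in replicate 2), of which 24.5 kb lay on shared H3K27ac. The cluster of Sdc3, a neural syndecan, and Laptm5 had 31.8 kb in 146 kb, of which 11.3 kb lay on shared H3K27ac. Mast3 and the potassium channel gene Kcnn1 shared a 163 kb cluster of 13 genes with 27.8 kb, of which 4.46 kb lay on H3K27ac, and its H3K27me3 peaks reached a fold enrichment of 9.98 and 7.55. Srcin1, an inhibitor of Src signalling, had 25.4 kb in 47.4 kb, or 53.6% of the cluster, with 6.94 kb on H3K27ac. Casz1, a zinc finger factor of neural and cardiac development, and Pex14 shared 177 kb with 24.7 kb. In the Uncx and Tmem211 clusters most of the shared H3K27me3 lay on H3K27ac, and in those of Mast3 and Srcin1 most of it lay in the gaps.

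Lhx2 resembled Uncx. H3K27me3 covered 23.5 kb of its 40.3 kb in replicate 1, 23.5 kb in replicate 2 and 19.5 kb in both, and the H3K27ac libraries covered 62.2% and 52.7%. Runx1, a factor of blood cells that is also used in olfactory neuron precursors, had 29.2 and 27.03 kb of H3K27me3 and 17.3 kb shared in 101 kb, with H3K27ac over 67.9% and 62.6%. Ebf2 had 13.2 and 13.2 kb with 9.43 kb shared in 95.3 kb. By contrast, the clusters of Hes6, Ncam1, Ebf1 and Adcy3 had no H3K27me3 in common between the libraries. Of the listed genes in clusters, 1 of 2 globose basal cell, 4 of 6 immature neuron and 2 of 3 mature neuron markers had it in their cluster.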

How the data were processed

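ChIP-seq peak lists of 2 H3K27ac and 2 H3K27me3 libraries of globose basal cells were used. The submitters' processing notes name MACS2, Bowtie, fastp and Picard, and GRCm38 (mm10) as the build. Tool versions are not given in the sources used here. For each library the authors called broad peaks and deposited a fold enrichment (a linear ratio), a −log10 p, a −log10 q and a score per peak, at a q of up to 0.1 as the smallest −log10 q shows. The lists hold no read totals, so depth and the precision it sets are unknown. All else was computed with Python 3.11.15, numpy 2.4.6 and pandas 2.3.3, and interval arithmetic was tested on simulated data. Any overlap of 1 bp counted. Genes, promoter windows of 300 bp (some genes and chromosome 18 not analysed here) and microRNAs came from RefSeq tables of GRCm38.p6, and the gene table has no strand.

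Clusters named are the 10 longest, the 5 most and 5 least covered by H3K27ac, the 6 with most shared H3K27me3, the 3 with most genes and those at the threshold, with at most 4 genes each (6 for the gene-rich), plus up to 8 listed genes per list. Of 72 fully covered microRNA genes, and of those not covered, the ones named were picked after their values were seen, as were genes named outside clusters. Members and lists were chosen with earlier results of these data known. Alternatives were other gaps, spans, peak thresholds and stretch lengths, removal of gene ends, and leaving out each library. The planned comparisons used no test. Some listed genes are not reported here.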

Additional observations from a re-analysis of the deposited data

How the results depend on the processing

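The number of clusters was 1056 by the rule. It was 171 with gaps of up to 5 kb and 2017 with up to 20 kb, 1626 with a minimum span of 30 kb and 502 with 60 kb, 418 and 36 when peaks of both marks had to reach a −log10 q of 2 and 5, 664 with shared stretches of at least 500 bp, and 875 with H3K27ac near gene ends removed. Leaving out an H3K27ac library gave 1574 to 2062 (without replicate 2). The median H3K27ac coverage (31.3%) became 58.7% and 19.2% with gaps of 5 and 20 kb and 40.6% and 54.3% at the 2 peak thresholds, and lay between 28.7% and 38.3% in the other 6 alternatives. Leaving out an H3K27ac library gave 30.7% to 32.8%. The share of clusters with H3K27me3 (58.8%) became 40.4% with gaps of 5 kb and 27.5% and 2.78% at the peak thresholds. With clusters kept and only H3K27me3 peaks filtered, an alternative chosen after seeing the data, it was 32.1% and 3.03%. Leaving out 1 library gave 58.4% to 92.2% (without H3K27me3 replicate 2). The H3K27me3 share of cluster bases (3.43%) ran from 0.0786% at a −log10 q of 5 for both marks to 10.1% without H3K27me3 replicate 2, and leaving out 1 library gave 3.47% to 10.1%. No paired analysis was possible because these results come from no test and the labels do not say that equal replicate numbers mark shared pools. The depth is unknown, so absence of an H3K27me3 peak means none at the authors' threshold.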

Other observations

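The same rule on the X chromosome, which the description of clusters left out, gave 2 clusters, or 0.117 per 10 Mb against 4.32 on chromosomes 1 to 19. They lay next to each other, at chrX:7638737-7698681 (59.9 kb, with Syp, a synaptic vesicle protein, Prickle3, Plp2, Magix and Gpkow) and chrX:7713708-7766497 (52.8 kb, with Wdr45, Praf2, Ccdc120 and Tfe3). H3K27ac shared by both libraries covered 22.5% and 23.9% of them, and shared H3K27me3 covered 1.45 kb of the former and 0.104 kb of the latter.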
